A study of Arabidopsis thaliana with 10 samples.

Results

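Tau class glutathione transferases (GSTs) are a plant family of enzymes, and 11 of the 22746 probe sets on these arrays measured them. The members were taken by name: every probe set that names a single gene whose symbol starts with GSTU. The RefSeq annotation lists 28 tau genes in Arabidopsis thaliana, 1 of them under the older symbol ERD9, so the 11 members cover fewer genes than the family holds. The other tau genes have no probe set named for them alone here and were not analysed here. Of the 11 members, 8 passed the filter on low signal and were tested (GSTU16, GSTU18, GSTU20, GSTU22, GSTU23, GSTU26, GSTU27 and GSTU28). The other 3, GSTU15, GSTU21 and GSTU25, had too little signal and are described by their values only.

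The plants were grown on perlite and watered with a nutrient solution holding 25 µM boron and 3 mM calcium. Control plants stayed on the complete solution and were taken at the sampling times called 2 days and 4 days, at ages of 19 and 21 days. The labels' treatment protocol and the design text place the start of the deficiency at different ages, so the days without boron or calcium are given as the groups are labelled. Boron-deficient plants received a solution without boron and were taken at both times. Calcium-deficient plants received a solution without calcium, its nitrate made up with magnesium and potassium salts, and were taken at 2 days only. Each of the 5 groups holds 2 arrays, which the labels call biological replicates, and each array measured RNA of whole plants. No plant line, mutant or transgene is named in the labels, and how many plants went into an array is not given in the sources used here. In RNA of whole plants, fewer cells that express a gene and less RNA of it per cell cannot be told apart.

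Glutathione transferases join the tripeptide glutathione to reactive or foreign molecules, which makes the products more soluble and lets carriers of the ABCC type move them into the vacuole. The tau class is found in plants and is best known for detoxifying herbicides and for transcripts that respond to stress and hormones. Its genes often lie side by side in tandem runs. GSTU20 has been described as a partner of FIN219 (JAR1), the enzyme that joins jasmonate to isoleucine, and as one of the transferases used in making aliphatic glucosinolates, the methionine-derived defence compounds of the cabbage family. GSTU26 is known for induction by herbicides and their safeners, and GSTU25 for acting on the explosive TNT. Boron cross-links pectin in the cell wall, and calcium also binds pectin.

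Arrays of the 4 day groups had been deposited on a higher scale, with median signals of 232 to 243 against 115 to 121 at 2 days. The arrays were therefore quantile normalized together, and signals below are normalized unless called deposited. Between the replicates of a group Spearman's coefficient was 0.969 (control, 2 days) to 0.993. The number of arrays, 2 a group, limits the precision. Changes are differences of log2(signal + 16), which understates the change of dim genes. Each change has a 95% confidence interval and an adjusted p from limma with Benjamini-Hochberg adjustment over all 17059 probe sets tested. "Rose" and "fell" are used of members with an adjusted p under 0.05.

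GSTU20 (AT1G78370) varied over the arrays more than any other tested member except GSTU26. Its signal was 416 and 301 in the control arrays of 2 days and 2038 and 1347 in the boron-deficient arrays of 2 days. The calcium-deficient arrays of 2 days read 1126 and 751. At 4 days the control arrays read 1147 and 1281, and the boron-deficient arrays 1737 and 1213. The control arrays of 2 days were thus the lowest of all 10, and the ranges of the 3 groups taken at 2 days did not overlap. At 4 days the control and boron-deficient ranges overlapped. Group means ± SD (n = 2 each) ran in the order control at 2 days (358 ± 81.3), calcium deficiency (938 ± 266), control at 4 days (1214 ± 94.9), boron deficiency at 4 days (1475 ± 371) and boron deficiency at 2 days (1692 ± 488). Of the neighbours in this order, the control and boron-deficient groups of 4 days overlapped, as did the boron-deficient groups of 4 and 2 days. The control of 2 days and the calcium-deficient group did not overlap, nor did the calcium-deficient group and the control of 4 days. Orders that cross the 2 sampling times mix time with the scaling of the arrays.

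**Figure D1:**
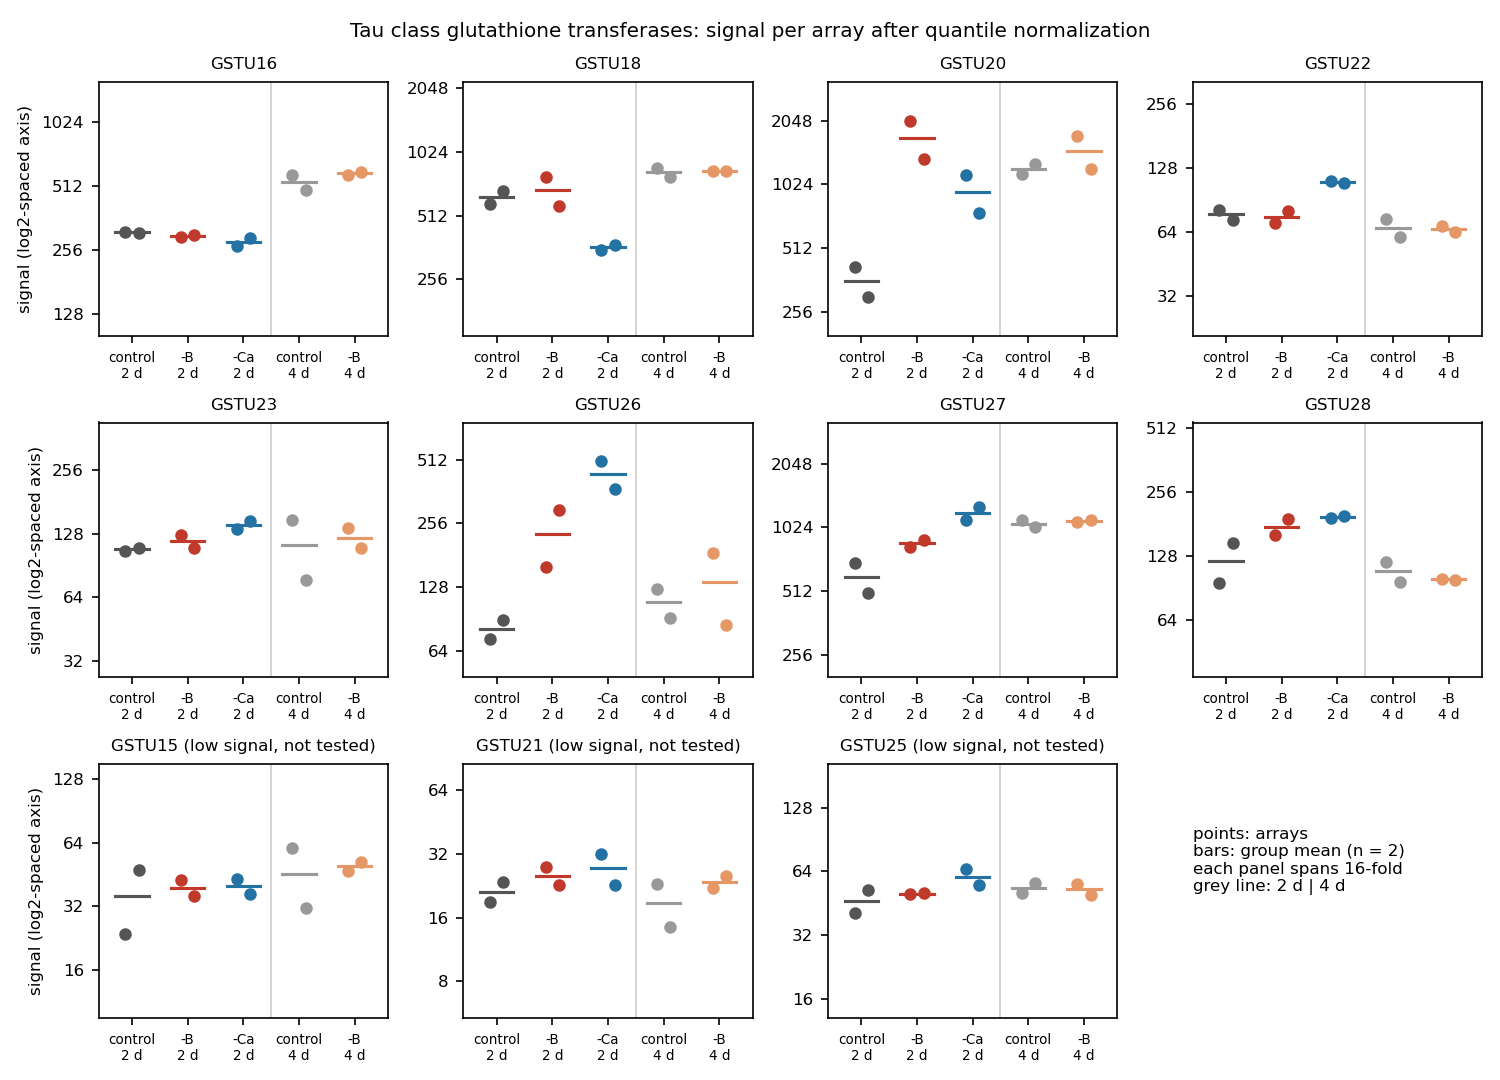
Normalized signal of the 11 tau GSTs, 1 panel a gene, with a log2 vertical axis. The 8 tested members come first, and the others are marked as not tested. Each point is an array, the 5 groups run along the horizontal axis and bars mark group means. GSTU20 is lowest on the control arrays of 2 days (301 and 416), and GSTU26 is highest on the calcium-deficient arrays (374 and 507).

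The first comparison asks which tau genes differed after boron was removed for 2 days. GSTU20 rose 4.53-fold, a log2 change of 2.18 with a standard error of 0.27 and a confidence interval of 1.57 to 2.79 (limma, adjusted p = 0.00339). Both boron-deficient arrays were above both control arrays, and the call held in each of 20 other settings, among them the 10 fits that left out an array. It was the 1 member called higher, and 0 were called lower. Of all probe sets 5.8% were called higher and 2.72% lower in this comparison, so 1 of 8 members is not far from the share of all probe sets.

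GSTU26, GSTU27 and GSTU28 did not pass the threshold under boron loss. Each had both boron-deficient arrays above both controls, but so had GSTU23 with a change of 0.11. With 2 arrays a group such a separation says little, and its share over all probe sets is not given here. GSTU26 (AT1G17190) read 72.7 and 89.6 in controls and 160 and 297 in boron-deficient plants, a log2 change of 1.28 (0.50 to 2.06, limma adjusted p = 0.0521). The boron-deficient arrays of GSTU26 lay far apart from each other. In the fits that left out an array its adjusted p ran from 0.0312 to 0.210, and 3 of 10 passed: without boron-deficient replicate 1 of 2 days and without either boron-deficient array of 4 days. GSTU27 (AT3G43800) went from 693 and 500 to 826 and 896, a log2 change of 0.53 (0.17 to 0.90, adjusted p = 0.0734 by limma). GSTU28 (AT1G53680) went from 94.9 and 147 to 160 and 191, a log2 change of 0.51 (0.10 to 0.92, adjusted p = 0.112 by limma). GSTU16, GSTU18, GSTU22 and GSTU23 had changes between -0.05 and 0.11. GSTU27 passed without control replicate 1 (0.76, limma adjusted p = 0.0132) and GSTU28 without control replicate 2 (0.79, limma adjusted p = 0.0251). The median change of the 8 members was 0.31, beside -0.02 over all probe sets tested. By limma 4 of the 8 had an unadjusted p under 0.05, as had 4521 of all 17059 probe sets tested.

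After 2 days without calcium, 5 of the 8 tested members rose, 1 fell and 2 did not pass. Over all probe sets 11.8% were called higher and 9.93% lower. The members' median log2 change was 0.54 beside -0.02 for all probe sets. The boron and calcium comparisons share their control arrays, so their values stand side by side here and are not counted as separate support.

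The largest change among the members under calcium loss was that of GSTU26. Its signal went from 72.7 and 89.6 in controls to 507 and 374 in calcium-deficient plants. Every calcium-deficient array was above every other array of the study for this gene. It rose 4.67-fold, a log2 change of 2.22 (standard error 0.35, interval 1.44 to 3.00, limma adjusted p = 0.00325). GSTU20 rose 2.53-fold, a log2 change of 1.34 (0.73 to 1.95, limma adjusted p = 0.00913). The call for GSTU20 was lost without calcium-deficient replicate 1, where the change was 1.05 (adjusted p = 0.0917).

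GSTU27 rose from 693 and 500 to 1110 and 1281, a log2 change of 0.998 (0.63 to 1.36, limma adjusted p = 0.00375). The calls for GSTU26 and GSTU27 held in all 20 other settings. GSTU28 rose from 94.9 and 147 to 192 and 197, a log2 change of 0.65 (0.24 to 1.06, limma adjusted p = 0.0328). GSTU22 (AT1G78340) rose from 81.6 and 73.0 to 111 and 109, a log2 change of 0.44 (0.16 to 0.72, limma adjusted p = 0.0343). For both genes the calcium-deficient arrays lay close together and above the controls. Both calls were lost without either calcium-deficient array (adjusted p of 0.121 to 0.169) and without either boron-deficient array of 4 days (0.0534 to 0.0563). They were also lost without a control array of 2 days, replicate 1 for GSTU28 (0.37, adjusted p = 0.112) and replicate 2 for GSTU22 (0.37, adjusted p = 0.0877). The call for GSTU28 was also lost with the 2 day arrays alone (adjusted p = 0.0806), and that for GSTU22 with the values as deposited, median centring, array weights and the 2 day arrays alone (adjusted p up to 0.0881).

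GSTU18 (AT1G10360) was the member that fell under calcium loss. Its signal was 581 and 668 in controls and 352 and 373 in calcium-deficient plants, a log2 change of -0.76 (-1.12 to -0.40, 1.69-fold lower, limma adjusted p = 0.0109). These calcium-deficient arrays were the lowest of the 10 for this gene. The call was lost without either calcium-deficient array, with adjusted p of 0.0892 and 0.0525. GSTU16 (AT1G59700) changed by -0.14 and GSTU23 (AT1G78320) by 0.34, and neither passed.

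**Figure D2:**
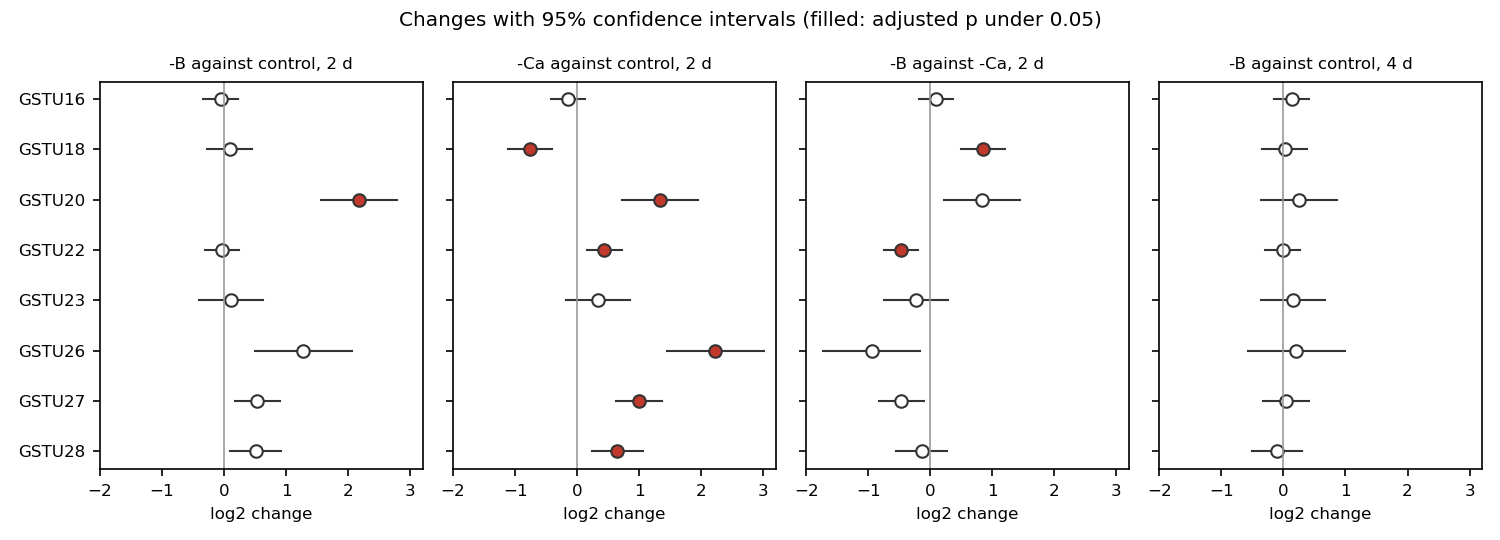
Log2 change of each tested tau GST with its 95% confidence interval, from the limma fit. The panels show boron and calcium loss at 2 days against control, boron against calcium loss, and boron loss at 4 days against control. Filled points passed an adjusted p of 0.05. GSTU20 passed under boron loss at 2 days (2.18), and 6 members passed under calcium loss.

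Setting boron against calcium deficiency at 2 days tests the difference between the treatments itself. The control means do not enter this difference, but the control arrays enter the estimate of the spread that all groups share. GSTU18 was 1.80-fold higher under boron than under calcium loss, with 779 and 568 against 352 and 373 (log2 0.85, interval 0.49 to 1.21, limma adjusted p = 0.0131). GSTU22 was lower under boron than under calcium loss, with 70.1 and 80.3 against 111 and 109 (log2 -0.47, interval -0.75 to -0.19, limma adjusted p = 0.0423). Of the 8 members 1 was thus higher and 1 lower, where 5.73% of all probe sets were higher and 4.72% lower. Both calls were lost with the arrays of 2 days alone (adjusted p = 0.0594 for GSTU18). That for GSTU18 was also lost without boron-deficient replicate 1 (adjusted p = 0.0765) and without either calcium-deficient array (0.101 and 0.0838). The call for GSTU22 held in 3 of the 10 fits that left out an array, those without boron-deficient replicate 2 of 2 days or without a control array of 2 days, and its adjusted p in the others ran up to 0.228. It was also lost with the values as deposited (adjusted p = 0.0906), median centring (0.0555), the replicate block (0.0550) and the block from the array descriptions (0.0705).

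For the most responsive members this direct test did not pass. GSTU20 was 1.79-fold higher under boron than under calcium loss, with a log2 difference of 0.84 (0.23 to 1.45, limma adjusted p = 0.0836). GSTU26 went the other way, with a difference of -0.95 (-1.73 to -0.17, limma adjusted p = 0.118). The arrays of the 2 treatments did not overlap for either gene, but neither did they for GSTU28, which differed by -0.14. Both differences passed without boron-deficient replicate 2 of 2 days, at 1.13 and -1.36 (limma adjusted p = 0.0369 and 0.0412). With the block from the descriptions the difference for GSTU26 was -1.17 (limma adjusted p = 0.0481). GSTU27 differed by -0.46 (-0.83 to -0.10) and GSTU28 by -0.14 (-0.55 to 0.27), with limma adjusted p of 0.105 and 0.689, and that of GSTU27 passed without either control array of 2 days (0.0378 and 0.0374). That GSTU26 passed under calcium loss and not under boron loss therefore does not show a difference between the treatments. The members' median difference was -0.18 beside 0.01 over all probe sets.

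After 4 days without boron 0 of the 8 members passed, and 0 had an unadjusted p under 0.05 by limma. All 8 had overlapping ranges of control and boron-deficient arrays, which says little with 2 arrays a group. The share of such overlap over all probe sets is not given here. Across all probe sets 1 was called in either direction, which is 0.00586%, and 725 had an unadjusted p under 0.05. GSTU20 changed by 0.26 (-0.35 to 0.87) and GSTU26 by 0.21 (-0.57 to 0.99), so the interval of GSTU20 at 4 days ended below the start of its interval at 2 days. GSTU26 read 126 and 91.8 in controls and 185 and 84.9 in boron-deficient plants. Changes of the other members lay between -0.10 and 0.15.

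The difference between the boron responses at 4 and at 2 days was tested in the same fit. For GSTU20 it was -1.92 on the log2 scale (-2.78 to -1.06), with an unadjusted p of 0.000637 and a limma adjusted p of 0.0819, so it did not pass. Without control replicate 1 of 2 days it did, at -2.14 (limma adjusted p = 0.0390). For GSTU26, GSTU27 and GSTU28 it was -1.07, -0.49 and -0.61, with limma adjusted p of 0.392, 0.401 and 0.356. No member passed, against 0.229% of all probe sets in either direction. By limma 2 of the 8 members had an unadjusted p under 0.05, as had 2265 of all 17059 probe sets tested.

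In control plants 3 members were higher at 4 than at 2 days and 0 were lower. GSTU20 rose 3.32-fold (log2 1.73, 1.12 to 2.34, limma adjusted p = 0.00116). GSTU16 had 312 and 306 at 2 days and 581 and 491 at 4 days, a rise of 0.76 (limma adjusted p = 0.00145). GSTU27 had 1107 and 1023 at 4 days against 693 and 500, a rise of 0.84 (limma adjusted p = 0.00369). Over all probe sets 18.9% were called higher and 17% lower, so many genes differed between these groups. Age and the scaling of the arrays cannot be told apart in this comparison. With median centring GSTU22 was also called lower (-0.36, limma adjusted p = 0.0422), which gave 3 higher and 1 lower. With the values as deposited all 8 members were called higher, on a scale where the median probe set was 0.89 higher at 4 days.

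Ranks within an array do not depend on its scaling. Quantile normalized signals follow from these ranks, so the ranks of GSTU20 restate its signals and are no separate check. It stood at the 73.9th and 65.8th percentile of all probe sets in the controls of 2 days. It stood at the 95.6th and 92.5th percentile under boron loss and at the 90.7th and 85.4th under calcium loss. At 4 days the controls were at the 90.9th and 92.0th and boron-deficient plants at the 94.6th and 91.5th. The low position of GSTU20 was thus seen in the control plants of 2 days alone among the 5 groups. GSTU26 stood at the 28.6th and 34.5th percentile in the same controls and at the 78.3rd and 71.4th under calcium loss. GSTU27 stood at the 84.1st and 78.0th in controls and at the 90.5th and 92.0th under calcium loss.

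**Figure D3:**
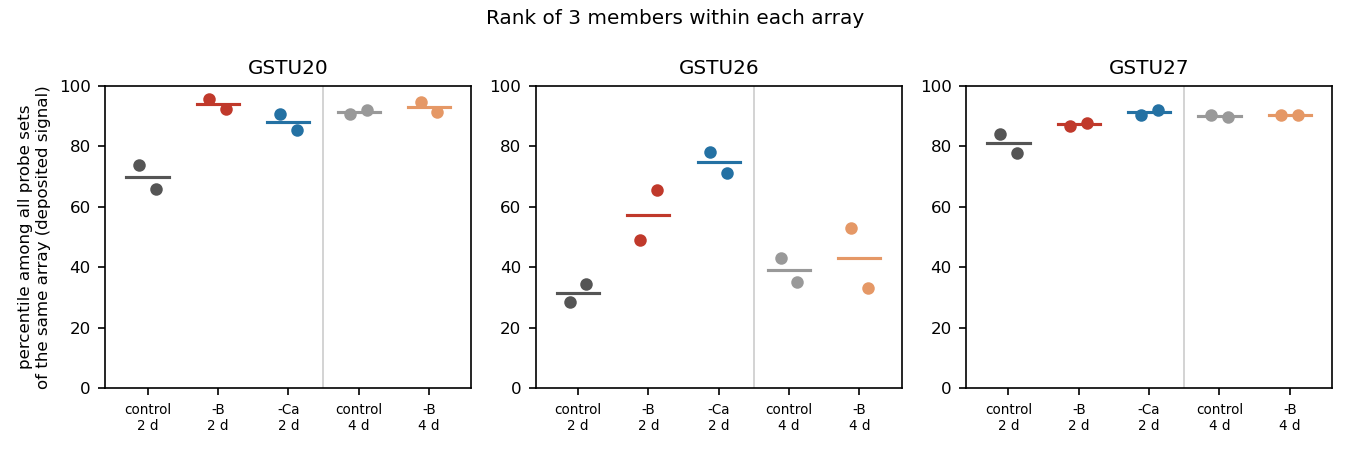
Percentile of GSTU20, GSTU26 and GSTU27 among all probe sets of their own array, for the 10 arrays in their 5 groups. The vertical axis runs in percent. GSTU20 lies at 65.8 to 73.9 in the controls of 2 days and at 85.4 or higher on every other array.

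GSTU20 has a tau gene on either side and GSTU26 on 1 side. In the RefSeq annotation of TAIR10.1, GSTU23, GSTU22, GSTU21, GSTU20 and GSTU19 follow one another with 0 protein-coding genes between them, and GSTU21 lies directly beside GSTU20. GSTU21 (AT1G78360) was near the floor of the arrays, with 14.4 to 31.8 on all 10. GSTU22 read 60.6 to 111 and GSTU23 77.5 to 149, and neither was called under boron loss at 2 days, with changes of -0.03 and 0.11. GSTU25 (AT1G17180) and GSTU26 are also direct neighbours. GSTU25 read 40.9 and 52.3 in controls of 2 days, 49.9 and 50.6 under boron loss and 65.6 and 55.0 under calcium loss. Its calcium-deficient arrays were above its controls, and it was not tested. GSTU15 (AT1G59670), with 3 genes between it and GSTU16, read 23.8 to 60.2. GSTU18 lies next to ERD9, and GSTU27 and GSTU28 have no close tau neighbour. Whether the probes of a tau gene also bind transcripts of a similar copy was not tested.

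The genes whose pattern over the 10 arrays was most like that of GSTU20 were found by the root mean square difference of centred log2 values among 9459 named genes. They were AT1G67750 (0.25), AT5G07030 (0.27), ATLP-1 (AT1G18250, 0.28), AT5G54970 (0.33) and PMEAMT (AT1G48600, 0.34). AT1G67750 read 145 and 109 in controls of 2 days, 492 and 523 under boron loss and 414 and 349 under calcium loss. PMEAMT read 571 and 609 in controls of 2 days, 1592 and 1500 under boron loss and 1313 and 1123 under calcium loss. As for GSTU20, the controls of 2 days were the lowest arrays for all 5 genes. The genes were chosen for their likeness over these same arrays, so this is no separate result. The nearest tau gene was GSTU27, at a distance of 0.64 and rank 467, and the farthest was GSTU26, at 0.97 and rank 7527. Of the 5 genes 3 were also among the nearest over the 6 arrays of 2 days alone, and 1 by Pearson correlation. The arrays share their scaling within a sampling time, so this likeness is a description.

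**Figure D4:**
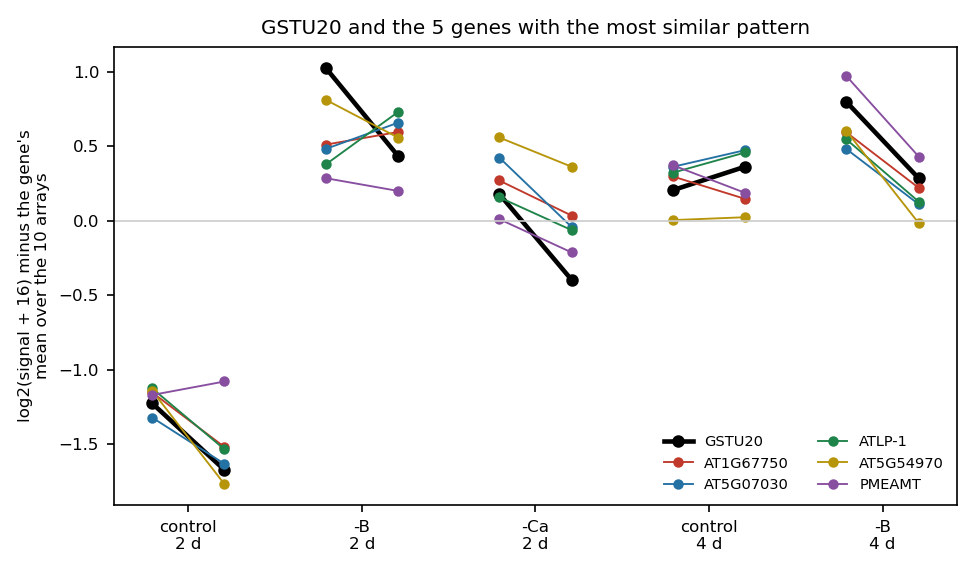
Log2 values centred on each gene's mean over the 10 arrays, for GSTU20 and the 5 named genes with the most similar pattern; each point is an array and the 5 groups run along the horizontal axis. All 6 genes are lowest on the control arrays of 2 days, and the 5 were chosen for their likeness to GSTU20 over these arrays.

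Other genes of glutathione chemistry were taken from lists, and 0 of the 5 tested were called under boron loss at either time. The list of the other GST classes had 30 entries, and 2 genes were tested. They were the lambda class GSTL3 and the phi class GSTF4, and 0 passed in the boron or calcium comparisons. GSTF4 read 70.7 and 65.6 in controls and 87.6 and 93.4 under calcium loss, a log2 change of 0.34 (limma adjusted p = 0.0560). The glutathione list had 32 entries, and 3 genes that reduce glutathione or use it were tested. Of these 1 rose under calcium loss, where 11.8% of all probe sets were called higher. It was the glutathione reductase GR1, from 400 and 415 to 633 and 644 (0.63, limma adjusted p = 0.0105). The glutathione reductase GR (AT3G54660) went the other way, by -0.40 (-0.77 to -0.03), and did not pass (limma adjusted p = 0.112). Under boron loss at 2 days 0 of these 3 passed, and GR1 changed by 0.36 (adjusted p = 0.117 by limma). No ABCC carrier had a probe set named for it alone. Median changes of the GST list were 0.09 under boron and 0.20 under calcium loss at 2 days, and of the glutathione list 0.13 and 0.10.

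The list for the response to foreign compounds and oxylipins had 33 entries, and 5 genes were tested. Of these 1 rose under calcium loss, where 11.8% of all probe sets were called higher. It was NQR (AT3G27890), a NADPH:quinone oxidoreductase, with 1249 and 902 in controls and 2025 and 2244 in calcium-deficient plants (0.99, limma adjusted p = 0.00345). It was lower under boron than under calcium loss by a log2 difference of -0.79 (limma adjusted p = 0.0162), a call lost with the arrays of 2 days alone, without boron-deficient replicate 1 of 2 days and without either calcium-deficient array. Under boron loss at 2 days 0 of the 5 passed. The glucosyltransferase UGT73B4 read 60.1 and 102 in controls and 48.6 and 46.7 in boron-deficient plants, a change of -0.57 (limma adjusted p = 0.234). The list's median change was -0.32 under boron and -0.24 under calcium loss, beside -0.02 over all probe sets for each.

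Since GSTU20 has been placed in aliphatic glucosinolate synthesis, genes of that pathway were set beside it. The list had 39 entries, and 4 genes were tested. Of these 3 rose under boron loss at 2 days, where 5.8% of all probe sets were called higher. BCAT4, the aminotransferase that starts the lengthening of the methionine side chain, went from 776 and 733 to 2336 and 2423 (1.64, limma adjusted p = 0.00392). AOP1, of the dioxygenase family of the side-chain enzymes, went from 81.0 and 63.8 to 143 and 133 (0.80, limma adjusted p = 0.0122). UGT74B1, which adds the glucose, changed by 0.56 (limma adjusted p = 0.0428). Under calcium loss, where 11.8% of all probe sets were called higher, 1 of the 4 rose, BCAT4 by 0.85 (limma adjusted p = 0.0206). BCAT4 and AOP1 were also higher under boron than under calcium loss, by 0.79 and 0.53 (limma adjusted p = 0.0437 and 0.0454). Over all the lists, markers apart, 3 genes were called in that direct comparison: BCAT4, AOP1 and NQR. That count went to 0 with the arrays of 2 days alone, without boron-deficient replicate 1 of 2 days and without either calcium-deficient array. It went to 1 with no filter, without boron-deficient replicate 2 of 2 days and without either boron-deficient array of 4 days. At 4 days without boron 0 of the 4 passed. The list's median change was 0.68 under boron and 0.26 under calcium loss at 2 days. The list was chosen with the rise of BCAT4 already known, so its count is not independent of it. Over all the lists here, root and shoot markers apart, the 3 genes called under boron loss at 2 days were BCAT4, AOP1 and UGT74B1. That count went to 0 with array weights and to 1 with the arrays of 2 days alone. It went to 2 with the values as deposited, median centring, no filter and the replicate block. The count under calcium loss went from 3 to 1 without calcium-deficient replicate 1 and to 5 without control replicate 1.

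The jasmonate list had 28 entries, of which MYC3 and MYC4, transcription factors of the hormone's response, were tested. Of these 2 genes, 0 passed in the boron and calcium comparisons. MYC4 read 245 and 167 in controls and 251 and 317 under boron loss at 2 days, a change of 0.45 (limma adjusted p = 0.163).

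Root and shoot markers were set beside the labelled tissue, whole plant, from lists of 12 and 18 entries. The lowest single value was 66.4 among the 3 root markers measured (PYK10, EXPA7 and EXPA18). Among the 3 shoot markers (RCA, LHCB4.1 and PRK) it was 4074.5. GSTU25, too dim to test, read up to 65.6, so a value above 0 is not a check of the label. The summed root markers ran from 1615 to 1889 in the controls of 2 days, 2508 to 3334 under boron loss and 3089 to 4137 under calcium loss. At 4 days they ran from 4424 to 4625 in controls and from 4136 to 4301 under boron loss. The controls of 2 days were thus the lowest for this sum, as they were for GSTU20. PYK10, a root beta-glucosidase, holds most of the sum and rose under boron loss by 0.73 and under calcium loss by 1.09 (limma adjusted p = 0.0375 and 0.00380), while EXPA7 and EXPA18 passed in neither. The summed shoot markers ran from 32556 to 36362 in controls of 2 days and from 32436 to 34091 under boron loss. Under calcium loss they ran from 26239 to 28987. There RCA was lower by a log2 change of -0.49 and PRK by -0.69 (limma adjusted p = 0.00894 and 0.00309). LHCB4.1 changed by -0.01 and did not pass (limma adjusted p = 0.946). At 4 days the summed shoot markers ran from 36604 to 36833 in controls and from 38023 to 38299 under boron loss. Quantile normalization gave RCA the same value, 18717, on every array of 4 days, so its part of these sums did not vary. The part of these shifts in the changes of the tau genes was not tested.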

How the data were processed

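Whole-plant RNA was measured on 10 Affymetrix ATH1 arrays in 5 groups of 2. Each deposited value is the linear signal intensity of a probe set. The authors used GCOS 1.4, according to the submitters' processing notes, and the target of its scaling is not given in the sources used here. Here all 10 arrays were quantile normalized together, taken as log2(intensity + 16), and filtered at the 25th percentile of mean log2 values, which removed 5687 probe sets and kept 17059. The tests used limma 3.58.1 (R 4.3.3): a mean per group, 6 contrasts, an intensity trend, 5 residual degrees of freedom, two-sided tests and Benjamini-Hochberg adjustment at 0.05. The code was tested on simulated data. Figures used matplotlib 3.10.9 in Python 3.11.15.

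Names came from the platform's table, which lists 14016 probe sets, 13513 of them with 1 gene. All 11 members matched a RefSeq locus of TAIR10.1, used for names and neighbours; genome sequence was not used here. Every member is described, with up to 3 called genes per list and comparison (or up to 2 by lowest p) and the 5 genes most like GSTU20. Members and lists were chosen with earlier results of these data known. Alternatives changed the scaling, pseudocount (4 and 64), filter, trend, array weights, replicate block and arrays used.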

Additional observations from a re-analysis of the deposited data

How the results depend on the processing

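Counts of called tau GSTs under other processing were as follows. For boron loss at 2 days, 1 member was called, and 1 to 2 when an array was left out. For calcium loss 6 were called, and 2 to 6 when an array was left out, with 2 without calcium-deficient replicate 1 and 3 without replicate 2. For boron against calcium loss 2 were called, 1 with values as deposited, 1 with median centring, 0 with the arrays of 2 days alone, and 0 to 4 when an array was left out (0 without boron-deficient replicate 1 or either calcium-deficient array). For the boron response at 4 minus 2 days 0 were called, 1 with the replicate block from the array descriptions, and 0 to 1 when an array was left out. For controls at 4 against 2 days 3 were called and 8 with values as deposited, where GSTU22 (0.59) and GSTU28 (0.75) turned from lower to higher; with median centring 4 were called, GSTU22 as lower (-0.36, limma adjusted p = 0.0422).

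The GSTU20 change under calcium loss ran from 1.05 to 1.63 when an array was left out. Its difference between boron and calcium loss passed with the replicate block (0.84, limma adjusted p = 0.0311), with the block from the descriptions (1.31, adjusted p = 0.0137) and, over left-out arrays, ranged from 0.54 to 1.13 (called without boron-deficient replicate 2 of 2 days). Its boron response at 4 minus 2 days was -2.39 with the description block (limma adjusted p = 0.0464) and -2.22 to -1.63 over left-out arrays. Same-numbered arrays did not deviate together (correlations of -0.25 to 0.23 over pairs of groups), so the numbers are not taken as pairs. The descriptions number the boron-deficient arrays of 2 days 2 and 3, so that block in effect leaves 1 of them out. Over the whole table, calls under boron loss at 2 days numbered 1454 (737 to 2786 over left-out arrays, 206 to 1467 over other settings), and calls under calcium loss 3706 (1006 to 4215 and 1905 to 4116). Calls for boron against calcium loss numbered 1784 (113 to 2499 and 442 to 2379). Calls for the difference of the boron responses numbered 39 (0 to 427 and 11 to 51), and for controls at 4 against 2 days 6118 (3412 to 6509 and 5016 to 14775). The causes were not tested. Signals of GSTU15, GSTU21 and GSTU25 were too low to test.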
